A study of Mus musculus with 68 samples.

Results

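Ire1, encoded by Ern1, is a sensor in the membrane of the endoplasmic reticulum (ER). When misfolded proteins accumulate in the ER, its cytosolic ribonuclease removes a short intron from Xbp1 mRNA, so that a potent transcription factor is made. The same ribonuclease also cleaves a set of other mRNAs at the ER membrane and so lowers their amount, a process known as regulated Ire1-dependent decay. The 5 genes described here are reported substrates of that decay: Scara3, a scavenger receptor-like membrane protein linked to oxidative stress; Bloc1s1, a subunit of the BLOC-1 complex of lysosome-related organelles; Hgsnat, a lysosomal enzyme of heparan sulfate breakdown; Pdgfrb, the beta receptor for platelet-derived growth factors; and Col6a1, a chain of collagen VI. All 5 were listed among the 13197 genes of the founder tables and among the 12803 genes of the F1 tables. They were chosen by name and selected on their log2 fall with tunicamycin (TM) per genotype and on its relation to Ern1 and Xbp1. That fall and that relation are therefore given as a description, with no test, and tests are given only for control levels and for other genes of the pathway. For these 5 genes a fall means a mean log2 change below 0 and not a call.

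RNA was sequenced from primary mouse embryonic fibroblasts (MEFs), fibroblasts grown from mouse embryos, of the 8 founder strains C57BL/6J (B6), A/J (A), 129S1Sv/ImJ (129), NOD/ShiLtJ (NOD), NZO/H1LtJ (NZO), CAST/EiJ (CAST), PWK/PhJ (PWK) and WSB/EiJ (WSB), and of 5 F1 crosses of a B6 mother with a 129, CAST, NOD, NZO or WSB father (x129, xCAST, xNOD, xNZO and xWSB). Cells received 2 ug/ml of TM, which blocks N-glycosylation and thereby causes misfolding in the ER, or 0.1% DMSO alone (control), for 4 h. There were 40 founder libraries (18 control and 22 TM) and 28 F1 libraries (14 and 14), with 2 or 3 per genotype and treatment. The MEFs of a genotype were a mixture of cells from several females of 1 litter, so replicates are wells of 1 cell preparation. The genotype cannot be told apart from that preparation, and p-values measure only the spread between wells.

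Values are reads per gene scaled to a common library size (trimmed mean of M-values, TMM), without division by gene length. In the libraries whose reads could be recovered, between 6442976 and 29528457 reads lay on genes. The fibroblast label was set beside 9 fibroblast markers, all listed in both sets. Their summed value was between 11900 and 44900 in the founders and between 10500 and 24800 in the crosses. Most of the sum came from Col1a1, Vim and Col1a2, with founder means of 7760, 7380 and 5190. Lum was low, with means of 2.14 in the founders and 0.758 in the crosses, and Thy1 ran from 1.38 to 654 over the founder libraries. Pericyte and smooth muscle markers (7 of 7 listed in both sets) were also high. Their median sum was 15000 in the controls of either set against 21800 and 16600 for the fibroblast markers. Among them Acta2 had a founder mean of 8370, above that of each fibroblast marker. The myeloid markers (7 of 8 listed in the founders and 4 in the crosses) summed to between 4.22 and 63.1, the endothelial markers (4 and 5 of 5) to between 0.826 and 18.7, and the epithelial markers (3 and 2 of 5) to between 0.502 and 78.3. No listed marker was at 0 in every library. A lower value in a bulk sample can come from fewer cells that express a gene or from less of its RNA per cell, and these cannot be told apart here.

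Ire1 recognizes a small hairpin in its RNA substrates. In Xbp1 both ends of the intron lie in hairpins with a loop of 7 bases that reads CNGCAGN, where N is any base, held by a paired stem. The coding transcripts of the 5 genes (GENCODE M21, GRCm38, the build named in the submitters' processing notes, 1 transcript per gene with the longest coding part) were searched on their own strand for the letters CNGCAGN, counting how many base pairs, G with T allowed, close directly on the loop without a gap. The hairpins below are shown because they are the Xbp1 pair that Ire1 is known to cut and a hairpin with the longest stem in each member but Pdgfrb, with the loop in capitals and DNA letters.

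Xbp1, intron 5′ end, chr11:5524276-5524282, plus strand: tgctgagtCCGCAGCactcagac
Xbp1, intron 3′ end, chr11:5524302-5524308, plus strand: gtgcacctCTGCAGCaggtgcag
Scara3, chr14:65953522-65953528, minus strand: cgggggccCTGCAGAggcccgcg
Bloc1s1, chr10:128920011-128920017, minus strand: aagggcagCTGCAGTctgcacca
Col6a1, chr10:76721473-76721479, minus strand: caatttcaCGGCAGCtgactggg
Hgsnat, chr8:25955751-25955757, minus strand: ctggtgtcCTGCAGCggttggga

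The Xbp1 hairpins closed with 6 and 7 pairs, and they were the only matches in Xbp1 with at least 4 pairs. Scara3 had 8 matches of the letters, of which 1, in the 5′ untranslated region, closed with 5 pairs. Bloc1s1 had 4 matches in 550 bases, or 7.27 per 1000 bases, of which 1, in the coding part, closed with 4 pairs. Col6a1 had 8 matches, Hgsnat 4 and Pdgfrb 11, and none of these closed with more than 3 pairs. Over 13008 listed genes with a coding transcript, 97.4% held the letters at least once, at 2.31 per 1000 bases, and 13.9% held a match with at least 4 pairs. That share rose with transcript length, from 2.91% below 1000 bases, the class of Bloc1s1, to 15.1% from 3000 to under 4000 bases, the class of Scara3. A match is a description of the letters and not evidence of cleavage.

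The members spanned a wide range of abundance. Per 1000 exonic bases, the mean value in founder controls was 101 for Col6a1 and 58.3 for Pdgfrb, against 16.1 for Bloc1s1, 14.1 for Hgsnat and 7.32 for Scara3. Ern1 was at 6 and Xbp1 at 37.2 on the same per-length scale. The order of the members was the same in the F1 controls, from 93.3 for Col6a1 to 4.8 for Scara3. The read count of Scara3 was between 190 and 671 in founder controls and between 31 and 253 in founder TM libraries, and that of Bloc1s1 between 133 and 493 and between 78 and 316. Scara3 (ENSMUSG00000034463, chr14:65919394-65953935), Hgsnat (ENSMUSG00000037260, chr8:25944453-25976753), Pdgfrb (ENSMUSG00000024620, chr18:61045150-61085061) and Col6a1 (ENSMUSG00000001119, chr10:76708792-76726168) shared no exonic base with another annotated gene. Bloc1s1 (ENSMUSG00000090247, chr10:128917882-128924035) shares 720 of its 1288 exonic bases with Rdh5, which is on the same strand and is also in the tables, so its counts are uncertain.

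Scara3 was lower with TM in every genotype, and by more than any other member. In the A strain it was at 31.2, 32.7 and 34.7 in the 3 controls and at 6.16, 6.17 and 7.9 in the 3 TM libraries. In B6 it went from 23.8 and 24.5 to 5.75 and 5.91, and in WSB from 25.1 and 27.9 to 5.93, 7.16 and 9.17. With TM these strains kept between 20.6% (A) and 27.9% (WSB) of the control level. In 129 the controls were at 20.2 and 18.6 and the TM libraries at 5.94, 3.9 and 6.54. In NOD they were at 19.9 and 20.9 against 6.52, 5.47 and 5.03. The changes in 129 and NOD, -1.84 ± 0.23 and -1.84 ± 0.11 on the log2 scale (SE of the difference), lay in the middle of the 8 strains.

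The smallest falls of Scara3 were in PWK, CAST and NZO. PWK was at 31.2, 29.3 and 30.2 in the controls and at 11.4, 13.5 and 15.5 with TM. CAST was at 12.9 and 16.3 against 6.18 and 5.49. NZO was at 37.7 and 36.5 against 13.4, 13.4 and 13.3. PWK therefore kept 44.4% of its control level, CAST 40.5% and NZO 36.2%. CAST and NZO reached this from opposite ends, since CAST had the lowest and NZO the highest control level of the 8 strains, and each NZO library with TM stayed above every TM library of B6, A, 129, NOD, CAST and WSB.

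**Figure D1:**
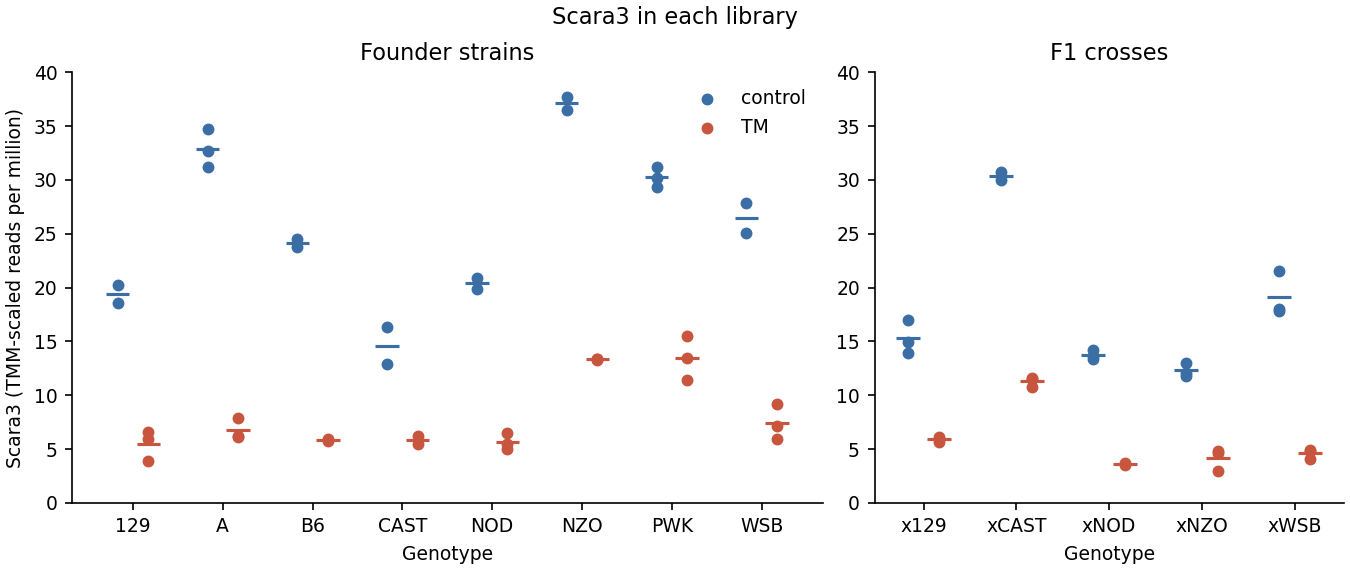
Scara3 in each library, in TMM-scaled reads (y axis), by genotype (x axis), with controls in blue, TM libraries in red and a short line at each group mean. Every TM library lay below every control library of its genotype, and NZO and PWK kept the highest TM levels among the founders.

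The crosses showed the same gap between control and TM libraries. The xCAST controls were at 30 and 30.7 and its TM libraries at 11.6, 10.8 and 11.5. The x129 controls were at 17, 13.9 and 14.9 against 5.9, 6.16 and 5.65, and the xNZO controls at 13, 11.8 and 12.1 against 4.64, 2.97 and 4.82. These 3 crosses kept between 33.5% and 39.2% of the control level. The xNOD controls were at 14.2, 13.6 and 13.4 against 3.73 and 3.52, and the xWSB controls at 18, 21.5 and 17.8 against 4.09, 4.81 and 4.88. The last 2 crosses had the larger falls, -1.89 ± 0.05 in xNOD and -2.03 ± 0.12 in xWSB.

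All TM libraries of Scara3 lay below all controls in 8 of 8 strains and in 5 of 5 crosses. Over all genes, 23.3% of gene and strain pairs and 20.0% of gene and cross pairs were separated in this direction, and 2.99% of founder genes and 3.32% of F1 genes were so in every genotype. The mean log2 change of Scara3 was -1.72 over the strains (SD 0.38 over 8 strains) and -1.66 over the crosses (SD 0.30 over 5), where all genes had a median of -0.04 in both sets. In order of mean change, Scara3 was the third lowest of 13197 genes in the founders and number 15 from the lowest of 12803 in the crosses. These places describe the gene and support nothing further, since the fall was part of the choice. Without any 1 of its libraries, the change in a strain stayed between -2.40 (A) and -1.06 (PWK).

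Hgsnat, which adds the acetyl group that lets heparan sulfate be degraded in lysosomes, was lower by a smaller and more even amount. Its founder values ran from 33.8 through a median of 45 to 66.3 in the controls and from 21 through 28.4 to 49.1 with TM. Within each genotype the groups did not overlap, in 8 of 8 strains and 5 of 5 crosses. The log2 change was between -0.68 (NZO) and -0.27 (PWK) in the strains, with a mean of -0.54, and between -0.53 (xWSB) and -0.36 (xCAST) in the crosses, with a mean of -0.44. The SD of the change over genotypes was 0.14 in the strains and 0.06 in the crosses, the lowest of the 5 members in each set.

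Col6a1 encodes the alpha 1 chain that pairs with the alpha 2 and alpha 3 chains in collagen VI of the matrix. The founder controls ran from 234 through 470 to 750 and the TM libraries from 148 through 289 to 510, and the groups did not overlap in 8 of 8 strains. The change was between -0.82 ± 0.30 in A and -0.31 ± 0.11 in NZO, with a mean of -0.53. In the crosses the controls ran from 321 through 405 to 523 and the TM libraries from 156 through 312 to 511. Here the groups were separated in 3 of 5 crosses, with the largest change in xNOD (-0.88 ± 0.23), and they overlapped in xNZO (-0.31 ± 0.18) and in xWSB (-0.12 ± 0.25). Without TM replicate 1 of xWSB its change in Col6a1 was 0.12.

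Pdgfrb is the receptor through which PDGF-B and PDGF-D act on fibroblasts and pericytes. Its founder values ran from 123 through 296 to 557 in the controls and from 117 through 233 to 436 with TM. The groups were separated in 6 of 8 strains and overlapped in A and NOD, and the change was between -0.60 (WSB) and -0.21 (CAST), with a mean of -0.41. The values of CAST and NOD depended on single controls: CAST was at -0.36 without control replicate 1 and -0.06 without control replicate 3, and NOD went from -0.24 to -0.44 and -0.03 without the same numbers. In the crosses they were separated in 4 of 5, with overlap in xNZO, and the change was between -0.77 ± 0.13 (xNOD) and -0.26 ± 0.08 (x129).

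Bloc1s1 had the least regular change, although it is widely used as a readout of this decay. Its TM libraries lay below its controls in B6, CAST, NOD and PWK, which is 4 of 8 strains, and in x129, which is 1 of 5 crosses. In CAST it was at 20.5 and 15.7 against 8.84 and 11.4, a change of -0.83 ± 0.27. In A the controls were at 37.6, 18.5 and 17.6 and the TM libraries at 8, 19.7 and 18.5, so that 1 control and 1 TM library set the mean change of -0.69 ± 0.54. Without control replicate 1 of A the change was -0.34, and without TM replicate 1 it was -0.27. In NZO the TM libraries were at 10.2, 8.87 and 26.3 against 16.1 and 22.7, and without TM replicate 3 the change went from -0.51 to -0.998.

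Mean changes of Bloc1s1 were below 0 in 8 of 8 strains (mean -0.52) and in 3 of 5 crosses (mean -0.21). In xNOD and xWSB they were 0.04 ± 0.15 and 0.04 ± 0.52. The xWSB controls were at 38, 15.2 and 12.5 against 15.6, 22 and 23.1 with TM, and without control replicate 1 the xWSB change was 0.53. All 5 crosses together thus gave no single direction for Bloc1s1, while the mean change of each other member was below 0 in 5 of 5.

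**Figure D2:**
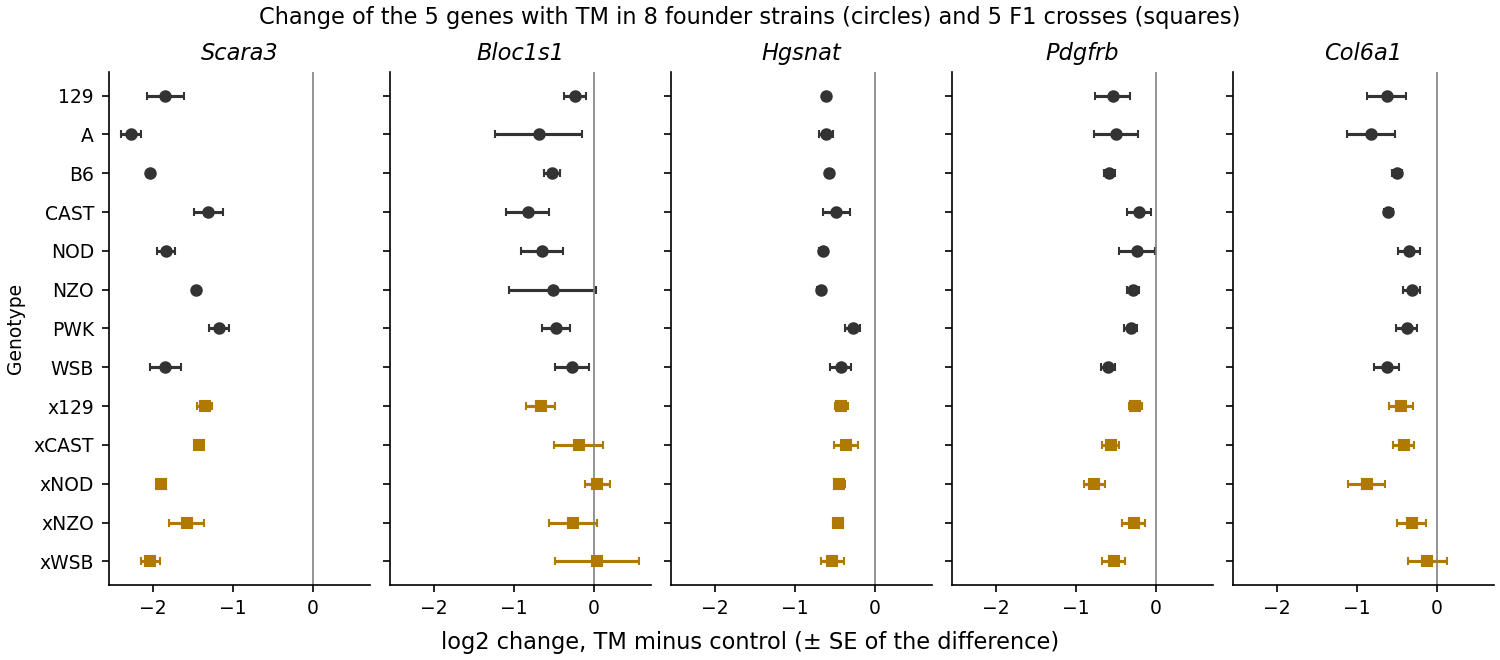
Log2 change, TM minus control (x axis), of each of the 5 genes in 8 founder strains (circles) and 5 F1 crosses (squares), with bars of 1 SE of the difference. Scara3 lay between -2.28 and -1.17 in the strains, while the other 4 genes lay between -0.88 and 0.04 over all 13 genotypes.

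The libraries differed in the balance of short and long transcripts, and part of the members moved with it. In each TM library, the median log2 change of the shortest 10% of genes (at most 1903 exonic bases in the founders) minus that of the longest 10% (at least 10280 bases) was taken as the shift. It ran from -0.72 in TM replicate 2 of NZO to 1.05 in TM replicate 2 of A, and in the crosses from -0.36 to 1.13, the last in TM replicate 1 of xNOD. Over the 22 founder TM libraries, which share controls within a strain, the change of Pdgfrb (5478 exonic bases) had a Pearson r of -0.87 with the shift and that of Ern1 (8173 bases) had -0.82. For Bloc1s1 (1288 bases) r was 0.67, for Col6a1 -0.51, for Scara3 -0.29 and for Hgsnat 0.17. Over the 14 F1 TM libraries the same r was -0.85 for Pdgfrb, -0.92 for Ern1, -0.68 for Col6a1, -0.55 for Scara3, 0.47 for Bloc1s1 and 0.09 for Hgsnat.

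Controls showed the shift too. Against the other controls of its genotype, control replicate 1 of A stood at 0.84 and control replicate 1 of xWSB at 1.35, and these were the 2 libraries with the highest Bloc1s1 values. When each change was set against the median change of genes in the same 10% class of exonic length in that library, an alternative chosen after seeing the data, Scara3 averaged -1.73 in the strains and -1.66 in the crosses. Hgsnat averaged -0.54 and -0.45, Col6a1 -0.53 and -0.43, Pdgfrb -0.39 and -0.44, and Bloc1s1 -0.46 and -0.23. Centred in this way, Bloc1s1 was at -0.28 in xNOD and 0.03 in xWSB. The size of the mean falls thus changed little, and the part of the shift in any single genotype's change was not tested.

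**Figure D3:**
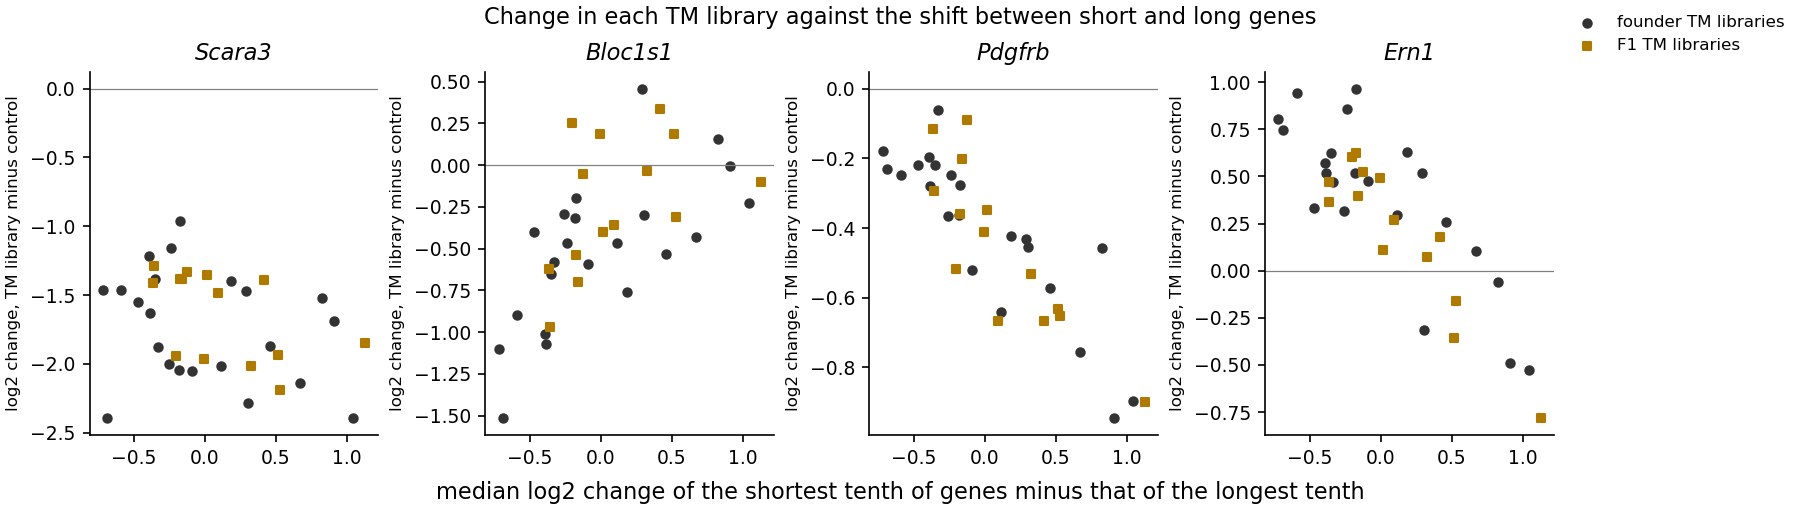
Log2 change of Scara3, Bloc1s1, Pdgfrb and Ern1 in each TM library against its controls (y axes) by the shift between short and long genes in that library (x axis), for 22 founder (circles) and 14 F1 (squares) TM libraries. In the founders Pearson r was -0.87 for Pdgfrb, -0.82 for Ern1, 0.67 for Bloc1s1 and -0.29 for Scara3, and in the crosses -0.85, -0.92, 0.47 and -0.55.

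Ern1 itself, the gene of the sensor, had an uneven response, and the difference between strains was not tested. The authors report that they did not find Ire1, PERK or Atf6 to vary in expression. The log2 change of Ern1 was -0.16 ± 0.27 in 129, 0.10 ± 0.13 in WSB, 0.25 ± 0.41 in A and 0.38 ± 0.09 in B6. It was 0.44 ± 0.40 in NOD, 0.60 ± 0.13 in CAST, 0.76 ± 0.13 in NZO and 0.82 ± 0.10 in PWK. All TM libraries lay above all controls in B6, CAST, NZO and PWK only. In A the TM libraries were at 92.8, 38.4 and 79.3, 1 below and 2 above all of the controls at 47, 59.8 and 60.2. Xbp1, whose mRNA Ire1 splices and whose gene the stress response also induces, rose by a nearly equal amount in each strain, from 1.06 in PWK to 1.28 in CAST, with separated groups in 8 of 8 strains and 5 of 5 crosses. These gene-level values count spliced and unspliced Xbp1 together and do not measure Ire1 activity. The share of all genes with every TM library above every control was not counted. The counts of separated groups for Ern1 and Xbp1 therefore have no reference and are a description only.

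Over the 8 strains, the fall of Scara3 was smaller where the change of Ern1 was higher. Pearson r between the log2 changes was 0.68 and Spearman rho 0.76 (n = 8), and r was 0.72 without 129 and PWK, the strains farthest from the median of the Ern1 change. The 3 strains with the smallest Scara3 fall, PWK, CAST and NZO, were those with the highest Ern1 change. The points share libraries, since each strain's changes in both genes come from the same TM and control libraries, and Ern1 moved with the length shift as given above. After centring on genes of like length r was 0.695. Leaving out 1 strain at a time gave r between 0.55 (without PWK) and 0.82 (without 129), and leaving out 1 library gave 0.46 without TM replicate 2 of A. With the TM level of Ern1 in place of its change, r was -0.21 and rho -0.19, or -0.27 without CAST and NZO.

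Col6a1 and Pdgfrb had the same direction as Scara3 with the Ern1 change, with r of 0.65 (rho 0.76, and 0.64 without 129 and PWK) and 0.73 (rho 0.67, and 0.77 without these strains). Hgsnat had r of 0.28 (rho 0.10, and -0.52 without them), a relation that rested on those strains. Without TM replicate 1 of 129, r was 0.44 for Col6a1 and 0.53 for Pdgfrb. Bloc1s1 had the opposite sign, with r of -0.54 (rho -0.33, and -0.47 without them). After the length centring, r with the Ern1 change was 0.62 for Col6a1, 0.56 for Pdgfrb, 0.65 for Hgsnat and 0.13 for Bloc1s1. The negative value of Bloc1s1 was thus not kept. Without 129 and PWK the centred r was 0.675 for Col6a1, 0.586 for Pdgfrb, 0.024 for Hgsnat and 0.661 for Bloc1s1. The centred relation of Hgsnat thus also rested on those strains.

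With the Xbp1 change, r was -0.48 for Scara3 (rho -0.43, and -0.82 without CAST and PWK), -0.66 for Col6a1 (rho -0.38, and -0.62), -0.53 for Bloc1s1 (rho -0.76, and -0.41), -0.20 for Pdgfrb (rho 0.10, and -0.50) and -0.20 for Hgsnat (rho 0.10, and 0.44). The Xbp1 changes lay close together in all strains, and 1 strain moved these values strongly: for Scara3, r was -0.89 without CAST and -0.19 without PWK. After length centring r was 0.002 for Scara3, -0.03 for Col6a1, -0.59 for Bloc1s1, -0.12 for Hgsnat and 0.44 for Pdgfrb. Without the strains farthest from the median of the centred Xbp1 change, these values were -0.301, -0.556, -0.695, -0.438 and 0.035 in the same order. With the TM level of Xbp1, r was -0.001 for Scara3 (rho -0.12, and -0.41 without PWK and WSB). It was 0.26 for Bloc1s1, 0.50 for Hgsnat, -0.27 for Pdgfrb and -0.10 for Col6a1. Without PWK and WSB these values were -0.245, -0.418, -0.115 and -0.193, so that Bloc1s1 and Hgsnat changed sign. With the TM level of Ern1, r was -0.05 for Bloc1s1, -0.54 for Hgsnat, 0.08 for Pdgfrb and 0.54 for Col6a1. Without CAST and NZO these values were -0.821, -0.430, 0.370 and 0.342. These 20 relations over 8 strains are descriptions and carry no test, and the 5 crosses were too few for a correlation.

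**Figure D4:**
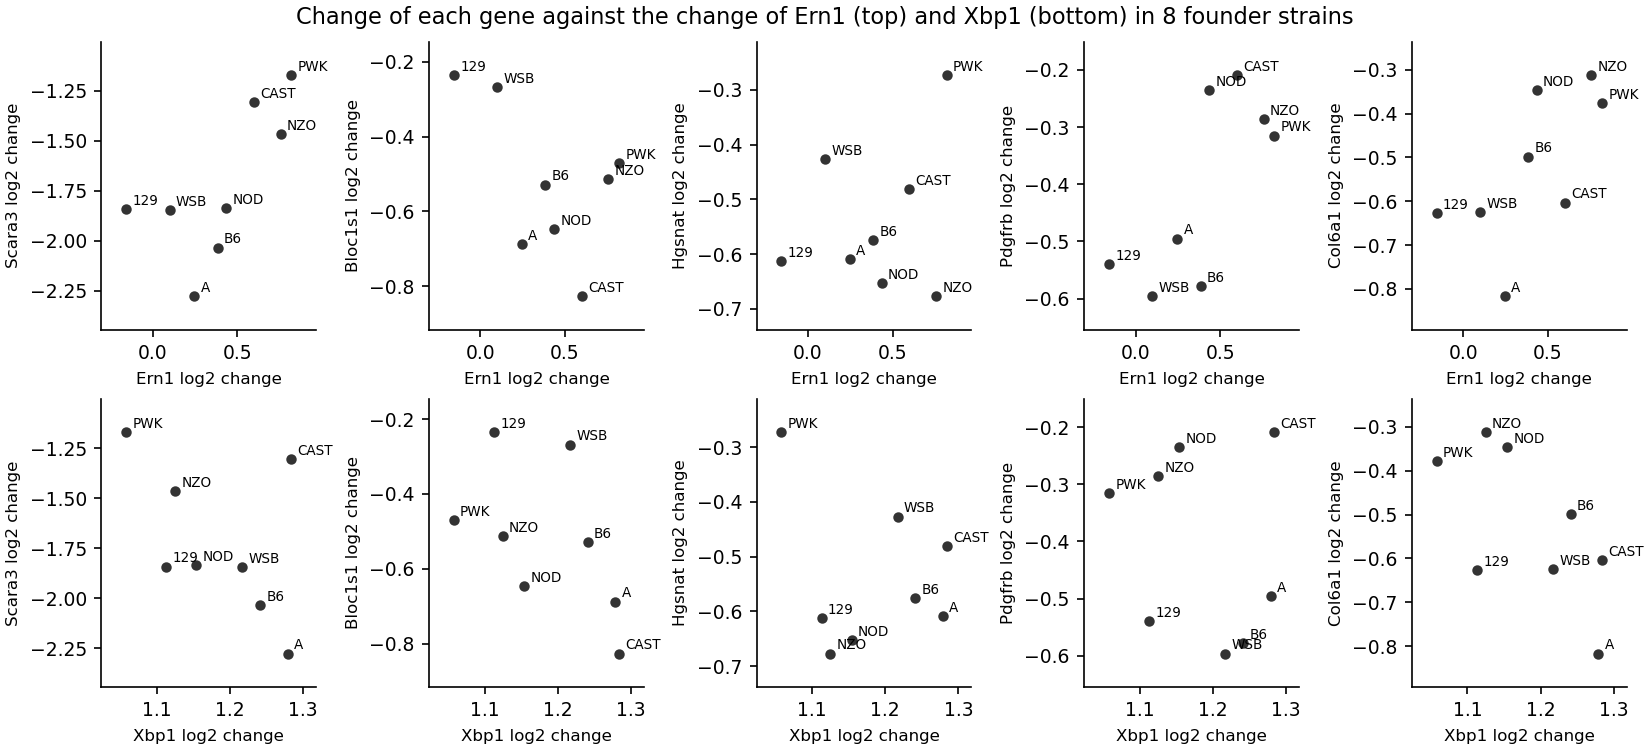
Log2 change of each of the 5 genes (y axes) against the log2 change of Ern1 (top row) and Xbp1 (bottom row) in the 8 founder strains, 1 labelled point per strain. PWK, CAST and NZO combined the smallest Scara3 falls with the highest Ern1 changes, while the Xbp1 changes lay within 1.06 and 1.28.

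Control levels were not among the stated grounds for choosing the genes and were therefore tested. The genes were chosen with earlier results of these data known, so independence of the choice from these levels is not shown. In the 18 founder controls the level differed between strains for 4 of the 5 members by limma's moderated F test (Benjamini-Hochberg adjusted over all genes), with an adjusted p of 5.51e-06 for Scara3, 4.27e-06 for Pdgfrb, 1.08e-05 for Col6a1 and 0.000351 for Hgsnat. Bloc1s1 did not pass (0.874). Of all genes, 35.8% passed in the founders, so a strain effect on the control level was common. Control levels were not centred on length, and the part of the length shift in them was not tested. Control replicate 1 of A, at 0.84 on that shift, had Pdgfrb at 269, against 395 and 398 in the other A controls. It had Col6a1 at 750, against 484 and 502. Without that library both genes still passed by limma (adjusted p = 1.96e-08 and 2.73e-08). In the 14 F1 controls Scara3 (2.01e-05), Pdgfrb (0.000467) and Col6a1 (0.00153) passed, Hgsnat (0.0133) and Bloc1s1 (0.837) did not, and 21.4% of all genes passed. Hgsnat passed in the crosses by edgeR (adjusted p = 0.00935). By limma it passed without control replicate 1 of xWSB (0.00502) or control replicate 3 of xWSB (0.00971). It did not pass by limma without any 1 control of x129, xNOD or xNZO, or without control replicate 2 of xWSB. The highest adjusted p of these was 0.036, without control replicate 2 of x129. With the replicate number as a block it did not pass either (0.0317). The cross with the highest Hgsnat level, xCAST, had 2 controls, at 48.3 (replicate 2) and 41.8 (replicate 3). Without replicate 2 only 1 xCAST control was left, and F was 2.911 instead of 7.157. The size of F thus rested largely on that library.

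Scara3 rose from CAST (14.6 ± 2.38, SD, n = 2) through 129, NOD, B6, WSB, PWK and A to NZO (37.1 ± 0.82, n = 2), a 2.54-fold range of means. The libraries of 129 and NOD overlapped, as did those of PWK and A, and the other neighbours in this order did not. Pdgfrb ran from CAST (137 ± 19.9, n = 2) to PWK (518 ± 33.5, n = 3), 3.78-fold. Among its neighbours NZO overlapped A and A overlapped WSB, and the A controls (269 to 398) also spanned those of 129 (274 and 285). Col6a1 ran from CAST (246 ± 9.32, n = 2) to WSB (654 ± 39.8, n = 2), 2.66-fold. Among its neighbours CAST overlapped NOD, and PWK, A and WSB overlapped in turn, while A (484 to 750) also overlapped B6 (457 and 496). CAST was thus lowest for these 3 genes. Hgsnat had another order, from A (35.8 ± 1.71, n = 3) to WSB (62 ± 6.1, n = 2), with CAST second highest and overlap of 129 with NZO, of B6 with PWK and of CAST with WSB. Bloc1s1 had a 1.36-fold range in which each strain overlapped its neighbour.

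In the crosses, xCAST had the highest Scara3 control level (30.4 ± 0.48, n = 2) and xNZO the lowest (12.3 ± 0.61, n = 3), whereas in the founders CAST was the lowest and NZO the highest. The sets were normalized apart, so these are orders within each set, and the B6 founder was not in the F1 set. Between them lay xNOD, x129 and xWSB, of which xNOD and x129 overlapped. Hgsnat was also highest in xCAST (45 ± 4.56, n = 2). Pdgfrb was highest in xWSB (320 ± 49.6, n = 3) and lowest in xNZO (187 ± 12.7, n = 3), the latter overlapping x129, and Col6a1 was highest in x129 (487 ± 31.5, n = 3), overlapping xWSB, and lowest in xNOD (336 ± 14.9, n = 3).

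The change of a cross was set beside the changes of its 2 parents, each taken within its own set. Scara3 lay between its parents in 4 of 5 crosses: -1.42 in xCAST (B6 -2.03, CAST -1.31), -1.89 in xNOD (NOD -1.84), -1.58 in xNZO (NZO -1.47) and -2.03 in xWSB (WSB -1.84), the last equal to B6 at 2 decimals. In x129 the fall of -1.35 was smaller than in both parents (129 -1.84). The change of the other 4 members lay above that of both parents in 15 of 20 cases, below both in 3 and between them in 2. Some of these cases differed very little, such as Pdgfrb in xNZO (-0.276, NZO -0.286) and Col6a1 in xNZO (-0.311, NZO -0.312). The share of all genes above both parents was not counted, and the sets were scaled apart, so no mode of inheritance is read from the counts. B6 is the parent of all 5 crosses, so these comparisons share its 4 libraries and carry no test.

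Genes that stand next to the members in the pathway were tested over the strains and over the crosses. At an adjusted p below 0.01 (limma, mean over genotypes), 20.5% of all founder genes rose and 21.9% fell, and 16.9% and 18.7% did so in the crosses. Of 9 other mRNAs reported elsewhere as decay substrates, 3 fell in the founders, namely Galnt10 (log2 change -0.33 ± 0.05, SE), Tapbp (-0.28 ± 0.04) and Sparc (-0.17 ± 0.04). Per1, a clock gene, rose (0.24 ± 0.07), and 5 did not pass. In the crosses Galnt10 (-0.27 ± 0.06) and Tapbp (-0.20 ± 0.06) fell and 7 did not pass. The median change of this list was -0.14 and -0.15, against -0.04 over all genes, and nothing particular to the list is read from its 3 and 2 falls.

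Most of the listed targets of the Xbp1 transcription factor rose. Of 14, 10 rose in the founders, from Srpr, the receptor for the signal recognition particle (0.14 ± 0.03), to Dnajb9, an ER cochaperone (2.88 ± 0.10), and 8 rose in the crosses, from Ssr3 (0.41 ± 0.09) to Dnajb9 (2.65 ± 0.10). None of the 14 passed as lowered in either set, and Kdelr3, a receptor that returns proteins to the ER, was at -0.13 ± 0.07 and -0.27 ± 0.09 without passing. All 8 genes of the PERK and ATF4 arm, the branch that slows translation, rose in both sets, from Eif2ak3, which encodes PERK (0.55 ± 0.06 and 0.53 ± 0.08), to Ddit3, which encodes CHOP (3.90 ± 0.09 and 3.76 ± 0.08).

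Genes whose products bind or regulate Ire1 were split. Of 9 listed, Hspa5, the chaperone BiP that holds Ire1 inactive (2.82 ± 0.07), Syvn1 and Traf2 rose in the founders and Bak1, a BCL2-family protein (-0.50 ± 0.05), Ptpn1 and Tmbim6 fell, and the same 6 genes passed in the same direction in the crosses.

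Genes that work with each member were counted apart, and the groups were not compared with each other. Of the collagen VI chains, Col6a2 (-0.36 ± 0.08 in the founders and -0.30 ± 0.09 in the crosses) and Col6a3 (-0.68 ± 0.12 and -0.70 ± 0.13) fell in both sets, beside Col6a1 with its means of -0.53 and -0.43, and Col6a4, listed in the F1 tables only, did not pass. Of 7 enzymes of heparan sulfate breakdown, 4 fell in both sets, Sgsh by most (-0.42 ± 0.06 and -0.48 ± 0.07). None of the 7 other BLOC-1 genes fell: Bloc1s6 rose in the founders (0.29 ± 0.05) and Bloc1s4 (0.43 ± 0.12) and Dtnbp1 (0.32 ± 0.09) in the crosses. In the PDGF system, the ligand genes Pdgfb (1.34 ± 0.07 in the founders) and Pdgfc (0.44 ± 0.04) rose in both sets while the receptor genes Pdgfra and Pdgfrl did not pass. Of the 2 scavenger receptor genes listed, Colec12 fell (-0.15 ± 0.04 and -0.22 ± 0.06) and Scara5 did not pass.

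**Figure D5:**
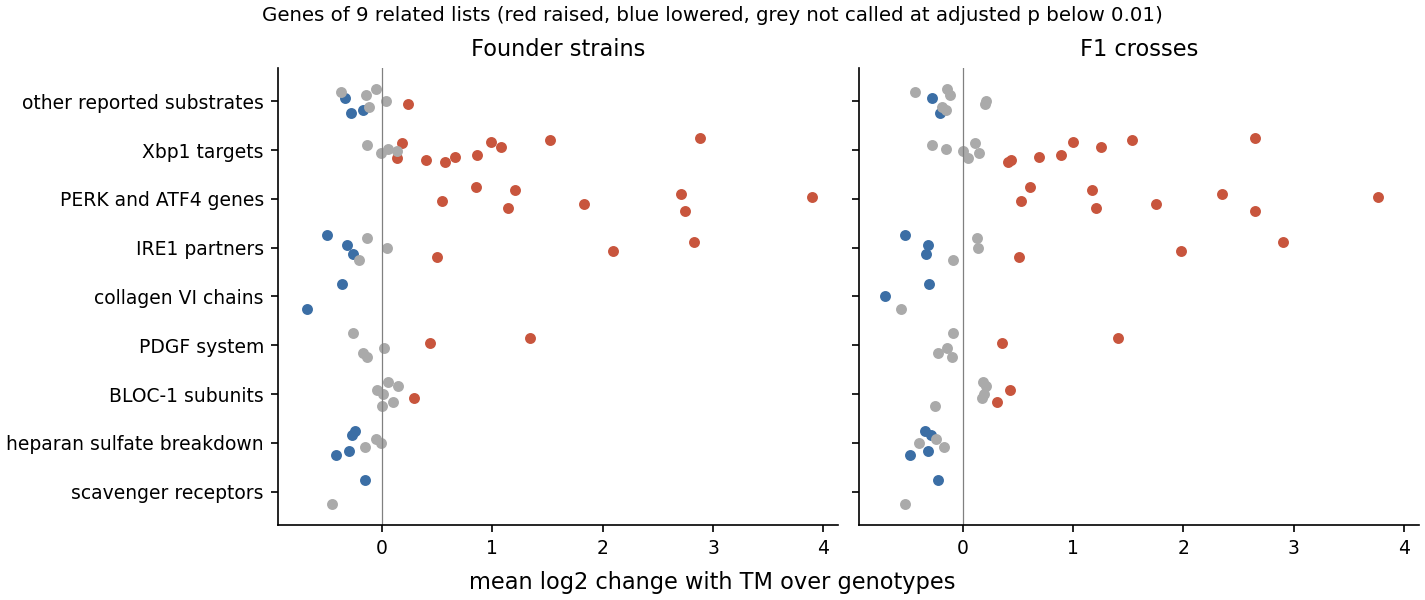
Mean log2 change with TM over the strains (left) and the crosses (right) on the x axis for the genes of 9 lists (y axis), coloured by call at an adjusted p below 0.01 (red raised, blue lowered, grey not called). All 8 PERK and ATF4 genes and 10 and 8 of 14 Xbp1 targets were raised, and the lowered genes lay between -0.70 and -0.15.

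Whether the response differed between genotypes was tested for these lists only. The strain by TM interaction passed in 4 of 64 founder genes (Pdgfb, Ppp1r15a, Sesn2 and Trib3), where 0.174% of all genes passed. The lists were chosen with earlier results of these data known, and the authors name Pdgfb among their strongest strain effects. The 4 calls are therefore not read as an enrichment of the lists. By edgeR 3 passed, and 2 passed by limma without CAST control replicate 1, CAST TM replicate 2 or CAST TM replicate 3. In the crosses limma passed 0 of 65, with 10 at an unadjusted p below 0.05 and 0 by edgeR, where 0.0547% of all genes passed. None of the 4 is a gene of the lists around collagen VI, BLOC-1, heparan sulfate or the other reported substrates.

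Some cell type markers fell as well, where 21.9% of all genes fell in the founders and 18.7% in the crosses. Each list is short, and nothing particular to the markers is read from the counts below. Of 9 fibroblast markers, 3 fell in the founders and 2 in the crosses, with Thy1 the largest (-0.42 ± 0.07 and -0.43 ± 0.07), and 3 of 7 markers of pericytes and smooth muscle fell in each set, with Cspg4 the largest (-0.54 ± 0.09 and -0.64 ± 0.10). Pdgfrb and Col6a1 are expressed by both cell types. The summed pericyte and muscle markers ran from 13400 through a median of 15000 to 18300 in founder controls and from 11400 through 13600 to 22900 in founder TM libraries, and the summed fibroblast markers from 14100 through 21800 to 44900 and from 11900 through 16800 to 36300. Of 7 myeloid markers listed in the founders 3 fell, and of 4 listed in the crosses 2 fell. The median sum of all listed myeloid markers was low, at 28.5 in founder controls and 16.9 in founder TM libraries. In the crosses it was 11.1 in controls and 6.53 with TM. The part of these markers in the falls of the members was not tested.

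Genes whose change over the 22 founder TM libraries was most like that of a member were sought among the 11044 other genes at a value of at least 0.5 in every founder library. For Scara3 they were Cry2 (Pearson r 0.77), Itgb3 (0.77) and ENSMUSG00000079254, which had no symbol (0.71). For Hgsnat they were Dusp1, Bean1 and F3 (0.81 each), for Pdgfrb Llgl1, Kif21b and Sorcs2 (0.94, 0.94 and 0.92), for Col6a1 Col4a2, Col6a2 and Clstn1 (0.93 each) and for Bloc1s1 Bola2, Dtymk and Uqcc3 (0.95, 0.94 and 0.94). No member was among the 3 most like another. Pdgfrb ranked 59 for Scara3 (r 0.58) and 584 for Col6a1 (0.74), and Bloc1s1 had r of -0.09 with Scara3, -0.26 with Hgsnat, -0.49 with Pdgfrb and 0.05 with Col6a1. The libraries of a strain share their controls, so these values describe the libraries and carry no p. The changes were not centred on length here, and Pdgfrb, Bloc1s1 and Col6a1 moved with the length shift as given above. The part of that shift in these r values was not tested.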

How the data were processed

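The authors aligned single-end 100 bp reads with TopHat 1.4.1 to strain-specific genomes (GRCm38), and scaled them by TMM with edgeR. Libraries lying apart from their group in principal components were dropped by the authors before a last scaling. The kit does not mark strand. The deposited values are called FPKM, and tests were designed for that, but each library's values are whole multiples of 1 step, so they are a TMM-scaled signal of reads per gene. Reads were recovered in 66 of 68 libraries, with 100% of values within 0.1 of a whole number. Founder and F1 tables were scaled apart. The F1 tables hold 3 lines that name no gene (15.5% to 24.2% of the signal), left out here.

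Members and lists were chosen with earlier results of these data known. log2(value + 0.1) was fitted with limma 3.58.1 in R 4.3.3 (eBayes, trend) over genes at 0.5 or more in at least 2 libraries, 1 mean per genotype and treatment, Benjamini-Hochberg over all genes, called at an adjusted p below 0.01. Named genes are the members, Ern1, Xbp1 and, of each list, the called genes with the largest and smallest change, plus others chosen after their values were seen. edgeR 4.0.16 was run on recovered reads. The fits were tested on simulated data. Over 58 pairs of replicates, counts differed by 1.88 to 112 times counting noise (chi-square per gene), so none was taken for a repeated deposit of 1 library.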

Additional observations from a re-analysis of the deposited data

Results flagged for a closer look

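Among the list genes, 4 had a response to TM that differed between the founder strains by the interaction test of limma (adjusted over all genes). The lists were chosen with earlier results of these data known. Without CAST control replicate 1, CAST TM replicate 2 or CAST TM replicate 3, the lists held 2 such calls instead of 4. Pdgfb, the ligand of the receptor encoded by Pdgfrb, rose by 0.40 on the log2 scale in 129 and by 2.37 in A (adjusted p = 0.0015). Trib3, a pseudokinase gene induced by ATF4 and CHOP, ranged from 1.94 in B6 to 3.86 in 129 (adjusted p = 0.000115). Sesn2, a stress-inducible regulator of growth signaling, ranged from 0.67 in B6 to 2.15 in CAST (adjusted p = 0.00142). Ppp1r15a, which encodes the phosphatase subunit GADD34, ranged from 1.49 in 129 to 2.55 in PWK (adjusted p = 0.00481).

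Ern1 moved in opposite directions in 2 crosses. In xNOD both TM libraries (22.8 and 30.7) lay below all 3 controls (35.5, 38.2 and 44.7), a log2 change of -0.57 ± 0.24. In xCAST all 3 TM libraries (58.8, 45.9 and 43) lay above both controls (37.3 and 38.8), a change of 0.357 ± 0.14. The difference was not tested, since the choice of the genes used the level of Ern1. The TM libraries of xNOD also had a shift between short and long genes of 1.13 and 0.52, and centred on genes of like length the xNOD change of Ern1 was -0.28.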

How the results depend on the processing

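Other settings were another pseudocount (1), other filters (none, or a mean of 2), other scaling (median of ratios), no trend, and edgeR on recovered reads. With these, no count of list genes moved by over 1.5 times. Of these settings, the mean changes of the members were recomputed with the other pseudocount and the other scaling. None of these mean changes moved by more than its replicate SD. The other scaling moved the median change of all genes from -0.037 to -0.048 in the founders. With a change of at least 1.5 fold also required, 16 founder list genes were raised instead of 25, 1 lowered instead of 13, and 1 instead of 12 lowered in the crosses. Equal replicate numbers did not pair control with TM libraries: over 29 such pairs the correlation of their deviations ran from -0.64 to 0.49, over 0.1 in 11, and 8 of 30 libraries in genotypes with 3 pairs were closest to their own number. With the replicate number as a block, 22 founder list genes were raised, 7 were lowered and 0 passed the interaction instead of 4, and in the crosses 21 were raised and 9 lowered. The block changed no call on the members' control levels.

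Leaving out each library in turn gave 2 to 5 founder interaction calls, lowest without CAST control replicate 1, CAST TM replicate 2 or CAST TM replicate 3. Where 1 library was left in a group, it was assumed to vary like the others. For Scara3, leaving out 1 library or strain gave r of 0.460 to 0.815 with the Ern1 change, -0.514 to 0.086 with the Ern1 TM level, -0.892 to -0.189 with the Xbp1 change (0.002 after length centring) and -0.322 to 0.232 with the Xbp1 TM level. Depth limits Scara3 most, with 31 reads in its lowest TM library.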
